A study of Arabidopsis thaliana with 3 samples.

Results

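Among the DNA regions recovered with the Arabidopsis thaliana transcription factor GRF5, 350 lay in introns and touched no coding exon, promoter or non-coding exon. They were chosen by position alone, from 19008 peaks shared by 2 GRF5 libraries on the 5 nuclear chromosomes. A peak was kept when the authors' annotation listed an intron and none of those other classes in both libraries. That annotation has no class for untranslated regions, so a member may also lie over an untranslated exon, and 5 members also reached intergenic sequence in at least one list. The assay was DAP-seq, in which a purified protein binds naked genomic DNA in a tube and the bound fragments are sequenced. His-tagged GRF5 made in Escherichia coli was mixed with sheared DNA of wild-type Col-0 roots, and an antibody against GRF5 recovered the complexes. The seedlings were 7 days old when moved to 0.2 mM nitrate, where they stayed for 3 days. Peaks of both libraries, called replicates 1 and 2, were called against 1 shared input library, whose treatment label reads control although its protocol text is that of the GRF5 libraries. The series design text also speaks of chromatin immunoprecipitation for these library names, while titles and protocols give DAP-seq. There was no recovery without GRF5, no other genotype and no other nitrate level among the peak lists. All values below are therefore enrichments over input in 2 libraries, with no comparison of conditions and no test.

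GRF proteins are plant transcription factors that act with GIF coactivators to promote cell proliferation in growing organs, and microRNA miR396 restrains many of them. Introns are transcribed and spliced out, so an intronic peak lies inside the transcribed gene. Some plant introns hold regulatory DNA: enhancers in a large intron of the floral gene AGAMOUS are a textbook case, and the first intron of some highly expressed genes raises their expression. In DAP-seq the DNA carries no nucleosomes, so recovery of an intron does not show that GRF5 occupies it in root cells.

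Each library alone held about the same number of such peaks. Replicate 1 had 733 intron peaks without coding exon, promoter or non-coding exon, 2.59% of its 28349 nuclear peaks. Replicate 2 had 711, or 2.63% of 27054. Of the 733 in replicate 1, 480 (65.5%) had a one-to-one partner in replicate 2, and of the 711 in replicate 2, 509 (71.6%) had one in replicate 1. Over all nuclear peaks the shares with a partner were 67.1% and 70.3%. The partner was an intron peak of the same kind for 350 of them. For the other 130 of replicate 1 and 159 of replicate 2, the partner carried another class, most often a coding exon, in 112 and 117 cases. Those partners were wider, with medians of 567 and 595 bp against 333.5 and 352 bp for the intron peaks they matched. The same place was thus often covered in the other library by a broader peak that reached an exon.

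Intron peaks without a partner in the other library were weaker at the median than the members. The 253 unpaired ones of replicate 1 had a median fold enrichment of 1.74, and the 202 of replicate 2 had 1.73. The strongest unpaired peak of replicate 1 lay in AT5G24200, an alpha/beta-hydrolase gene, with 2.98-fold enrichment on chromosome 5 from 8204615 to 8204928. Sharing required an overlap of 50% of the shorter peak. The member nearest that limit overlapped by 54.2%, in CHC1, with 1.60-fold and 1.61-fold enrichment in replicates 1 and 2. The single pair outside it overlapped by 27.0%, in AT1G79420, with 1.57-fold and 1.46-fold.

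The strongest member stood well apart from all others. It lay in an intron of AT2G39300, annotated as a CAP-Gly domain linker gene, on chromosome 2 from 16412908 to 16413473 in replicate 1 and from 16412920 to 16413446 in replicate 2 (TAIR10, 1-based). Fold enrichment, the authors' ratio of the fragment pileup at the summit to the input-based background, was 5.26 in replicate 1 and 5.41 in replicate 2. The pileups were 244 and 236 fragments, the summits lay 9 bp apart, and the −log10 q values were 90.3 and 89.8. It ranked 34 among the 19008 shared peaks. The gene also carried a shared coding exon peak, which reached only 1.54-fold and 1.57-fold.

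Next came AT5G49140, a disease resistance gene of the TIR-NBS-LRR class, on chromosome 5 from 19920170 to 19920557. Its enrichment was 3.17-fold in replicate 1 and 3.51-fold in replicate 2, with pileups of 154 and 160 fragments. These were the only members at or above 3-fold in both libraries, 2 of 350 (0.571%, 95% Wilson interval 0.157 to 2.06%), beside 1.42% of all shared peaks. Peaks over coding exon and intron without promoter reached that level in 2.31% of 3931 cases, and those over coding exon without intron in 3.06% of 620. Only 1 member was among the top 1% of shared peaks and 9 (2.57%) among the top 5%. The members' interval holds the value of all shared peaks and lies below the share of both coding exon classes.

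The third strongest member lay in AT2G19150, a pectin lyase-like gene, with 2.89-fold and 3.08-fold enrichment. The fourth was in AT5G28850, annotated as a calcium-binding subunit gene of protein phosphatase type 2A, with 2.69-fold and 3.03-fold, in a broad peak on chromosome 5 from 10880290 to 10881099. NAC067 (AT4G01520), a NAC transcription factor gene, had 2.68-fold and 2.94-fold in a narrow peak of 248 and 275 bp on chromosome 4 from 657342 to 657589. NAC067 also had a shared promoter peak, with 1.42-fold and 1.65-fold, and coding exon peaks up to 1.91-fold and 1.70-fold, so its intron held its strongest site in both libraries. SAP (STERILE APETALA, AT5G35770), an F-box-type regulator gene of flower development and organ size, had 2.52-fold and 3.09-fold on chromosome 5 from 13938782 to 13939238. A further SAP intron peak reached 1.58-fold and 1.81-fold, and its promoter peak 1.80-fold and 2.03-fold.

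SKU5 (AT4G12420), which encodes a cell-surface protein related to copper oxidases needed for straight root growth, carried 2.35-fold and 2.73-fold enrichment. KRP4 (AT2G32710), an inhibitor gene of cyclin-dependent kinases, had 2.73-fold in replicate 1 and 2.32-fold in replicate 2, on chromosome 2 from 13874185 to 13874630, with summits 138 bp apart. It had no shared promoter or coding exon peak. YAB5 (AT2G26580), a YABBY transcription factor gene of lateral organs, had 2.38-fold and 2.54-fold on chromosome 2 from 11305143 to 11305435, with summits 31 bp apart. PDF2 (AT4G04890), a homeobox gene of epidermal identity, had 2.39-fold and 2.24-fold. AAP1 (AT1G58360), an amino acid permease gene that serves root uptake, had 2.27-fold and 2.38-fold, above its own promoter peak of 1.64-fold and 1.67-fold.

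The remaining members of the top 25 lay in AT5G23490, AT1G62530, AT5G46170, AT1G10650, AT5G35732, PGSIP3, scpl22, AT2G27080, AT2G12646, AT1G56660, ASL1, AT2G02635, PHT4;6 and VLN4, with mean fold enrichments from 2.31 to 2.53. PGSIP3 encodes a glycosyltransferase of xylan, PHT4;6 a phosphate transporter, VLN4 an actin-bundling villin, ASL1 a LOB-domain protein and AT2G12646 a PLATZ transcription factor. AT5G46170 is an F-box gene and scpl22 a serine carboxypeptidase-like gene. AT1G62530, a gene without a described function, had 2.29-fold and 2.66-fold, the largest ratio between libraries among these.

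**Figure D1:**
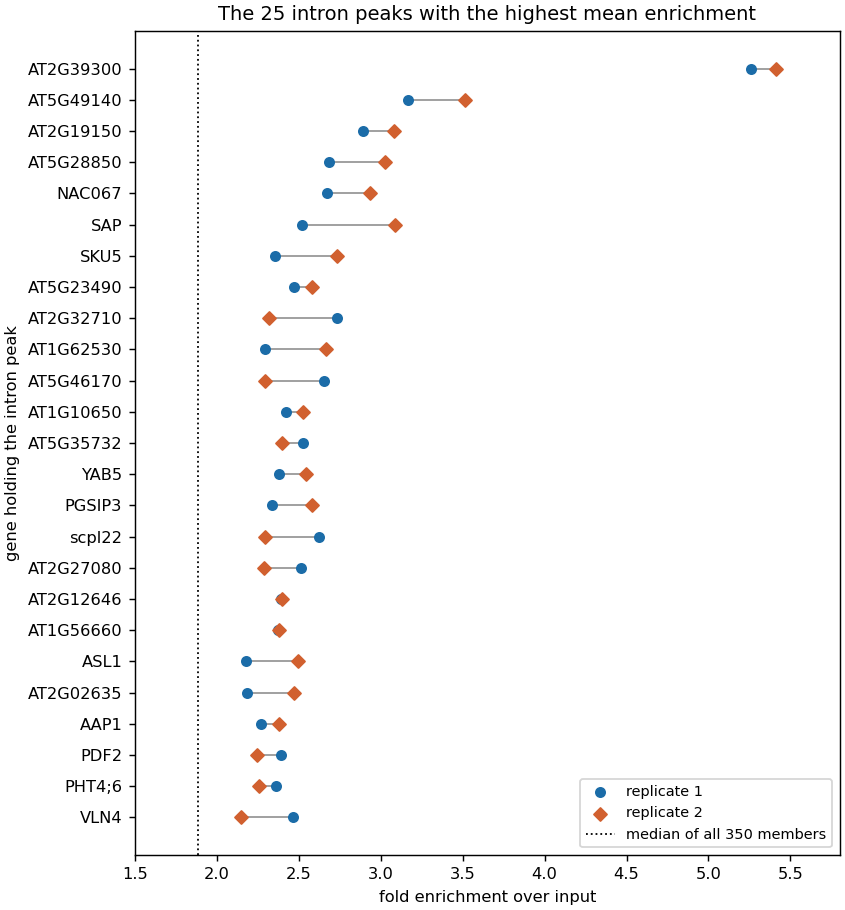
Fold enrichment over input (x axis, ratio) of the 25 intron peaks with the highest mean, one line per peak named by its gene, with replicate 1 as circles and replicate 2 as diamonds; the dotted line is the median of the mean fold over the 350 members, 1.88. AT2G39300 stands at 5.26 and 5.41, AT5G49140 at 3.17 and 3.51, and the rest of the values lie between 2.15 and 3.09.

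Most members were weak. Their fold enrichment had a median of 1.89 in replicate 1 (quartiles 1.71 and 2.06, range 1.35 to 5.26) and of 1.88 in replicate 2 (quartiles 1.72 and 2.10, range 1.36 to 5.41). Over all shared peaks the medians were 1.88 and 1.89. The mean of both libraries lay from 1.5 to below 2 for 232 members (66.3%) and below 1.5 for 5. Enrichment of at least 2-fold in both libraries was reached by 84 of 350 members (24%, 95% Wilson interval 19.8 to 28.7%), close to the 22.1% of all shared peaks. Peaks over coding exon and intron reached it in 19.2% of cases (interval 18.0 to 20.5%). That value lies just below the members' interval, although the intervals overlap. Peaks over coding exon without intron reached it in 22.4%, inside the members' interval. The members' median summit pileup was 88 fragments in replicate 1 and 83 in replicate 2. The background that these folds imply had medians of 46.1 and 43.3 fragments, against 45.8 and 43.0 over all shared peaks. The typical value of the intron peaks was thus close to that of all shared peaks. Intervals cover error in counting peaks only, and peaks are not independent replicates.

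Across the 350 members, Spearman's rho between the libraries' fold enrichments was 0.605. Pearson's r on the log2 scale was 0.691, and without AT2G39300 it was 0.644. Over all shared peaks rho was 0.572 and r was 0.719. Peaks over coding exon and intron had 0.578 and 0.783, and those over coding exon without intron 0.625 and 0.791. The members' rho thus lay among those of the other classes, while their r was the lowest. These are correlations across peaks that share libraries and input, and only peaks called in both lists enter them. The log2 ratio of replicate 1 to replicate 2 averaged -0.01 with an SD of 0.17. Enrichment was higher in replicate 1 at 161 members and higher in replicate 2 at 189. The ratio passed 0.5 on the log2 scale, either way, at 3 members.

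The 5 members that differed most between libraries were in AT3G01350, AT5G17900, DAR2, AT3G23480 and PEPKR2. AT3G01350, of the major facilitator superfamily of transporters, had 1.55-fold in replicate 1 and 2.26-fold in replicate 2. AT5G17900 went the other way, with 2.06-fold and 1.42-fold. DAR2 (AT2G39830), of the DA1 family and also known as LATERAL ROOT DEVELOPMENT 3, had 1.75-fold and 2.48-fold, with pileups of 89 and 119 fragments. AT3G23480 had 2.06-fold and 1.49-fold, and PEPKR2, a protein kinase gene, 1.51-fold and 2.08-fold. In all 5 the library with the higher fold also had the higher pileup, which is partly built in because the pileup enters the fold. At AT3G01350 the implied background differed as well, with 53.2 and 43.7 fragments in replicates 1 and 2. It differed less at the others.

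**Figure D2:**
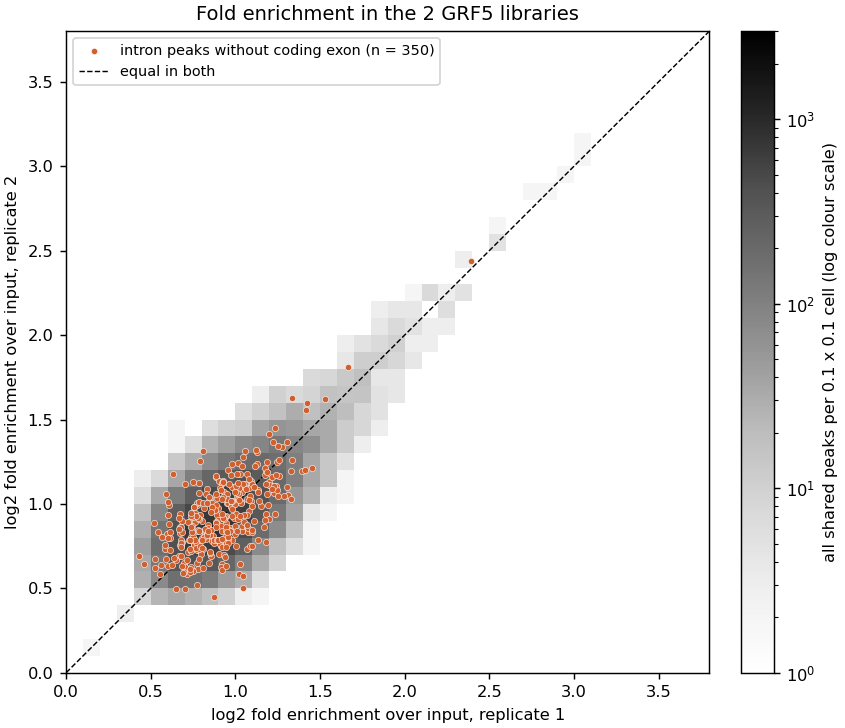
log2 fold enrichment over input in replicate 1 (x axis) and replicate 2 (y axis): orange points are the 350 intron peaks without coding exons, grey cells count all 19008 shared peaks on a log colour scale, and the dashed line marks equal values. The members lie inside the cloud of all shared peaks, and only AT2G39300 and AT5G49140 are at or above 3-fold in both.

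Members were narrower at the median than the classes with coding exons. Width is not independent of the rule: intron peaks that left the class had wider partners, as given above. The members' median width was 378.5 bp in replicate 1 and 384 bp in replicate 2. It was 519 and 512 bp for peaks over coding exon and intron, and 475 and 463 bp for all shared peaks. Peaks over coding exon without intron came closer to the members, at 430.5 and 428.5 bp. Both widths were under 300 bp for 38 members. The widest by mean width was in AT4G08460, with 2168 bp in replicate 1 and 1031 bp in replicate 2. It was followed by AT2G02050, a subunit gene of mitochondrial NADH dehydrogenase (1430 and 1504 bp), KNAT2 (1074 and 873 bp), AT1G10650 (907 and 993 bp) and AT2G19390 (1052 and 839 bp). The narrowest were in AT5G17900 (253 and 243 bp), AT3G11420 (249 and 249 bp) and AT1G33930 (250 and 248 bp).

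Summits of the 2 libraries lay a median of 50 bp apart in the members. The median was 58 bp for peaks over coding exon and intron, 48.5 bp for those over coding exon without intron and 52 bp for all shared peaks. They were within 100 bp at 255 of 350 members (72.9%, 95% Wilson interval 68.0 to 77.2%). The share was 62.4% for peaks over coding exon and intron, 68.9% for those over coding exon without intron and 65.2% for all shared peaks. Width moved with this. Among peaks under 400 bp mean width, 80% of 180 members and 77.2% of 1034 coding exon and intron peaks had summits within 100 bp. At 600 bp and wider the shares were 63.2% of 57 members and 52.2% of 1583 peaks. Summits within 10 bp were found at 60 members, and more than 300 bp apart at 25. The most distant pair was in RBP45A, an RNA-binding protein gene, with summits 773 bp apart inside peaks of 645 and 1016 bp, so that both libraries need not mark the same site there.

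**Figure D3:**
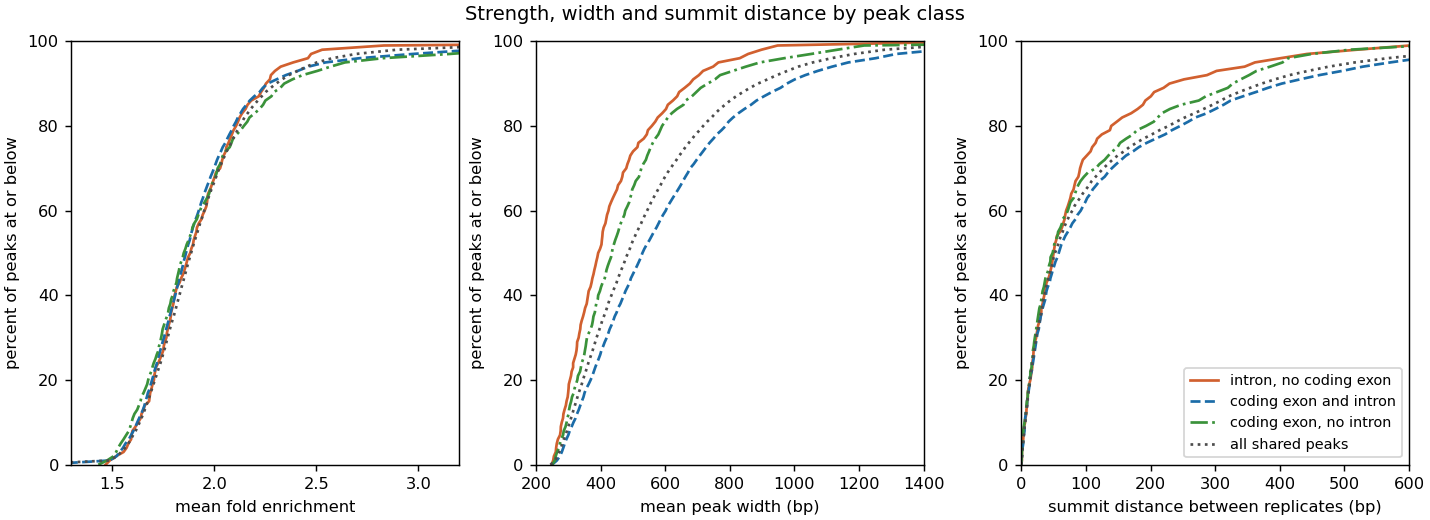
Cumulative share of peaks (y axis, percent) by mean fold enrichment, mean width in bp and summit distance between replicates in bp (x axes), for the 350 members, the 3931 peaks over coding exon and intron, the 620 over coding exon without intron and all 19008 shared peaks; the x axes stop before the most extreme peaks. At 50% of peaks the fold curves lie between 1.85 and 1.89. At 95% they run from 2.39 for the members to 2.64 for coding exon without intron. The width curve of the members lies left of the others over most of its course.

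The members fell in 340 genes, each peak in a single gene that both lists named. Of these genes 335 were protein-coding and 5 were pseudogenes in the RefSeq gene table. Hosts made up 1.22% of the 27444 nuclear protein-coding genes. The listed genes of nitrogen use, hormones, growth and introns, 212 in all, held 14 hosts (6.60%). The lists were drawn up with earlier results of these data known, so the share is a description only.

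Of 19 nitrate transport genes, 3 held a member. In NRT1.1 (AT1G12110), a nitrate transporter and sensor gene that the series names as a target, the intron peak ran on chromosome 1 from 4107058 to 4107795 in replicate 1 and from 4107045 to 4107755 in replicate 2. Pileups were 92 and 83 fragments, fold enrichment was 2.2 and 2.12, and the summits were 6 bp apart. Its promoter peak, 3305 bp away, had 2.14-fold and 2.09-fold, so the sites were equally strong within the difference between libraries. NRT1.7 (AT1G69870), which loads nitrate into phloem in older leaves, had an intron peak with 1.76-fold and 1.97-fold and summits 1 bp apart. SLAH3 (AT5G24030), a nitrate-permeable anion channel gene, had 1.60-fold and 1.82-fold. NRT1.7 had no shared promoter or coding exon peak. SLAH3 had a coding exon peak 3663 bp away that was far stronger, with 4.76-fold and 4.67-fold.

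Of 18 nitrogen assimilation and ammonium uptake genes only GLN2 (GS2, AT5G35630), the gene of plastid glutamine synthetase, held a member, with 2.01-fold and 2.15-fold on chromosome 5 from 13830705 to 13831047. It carried no shared promoter or coding exon peak. Of 29 nitrate signalling genes, NLP2 (AT4G35270), of the NIN-like transcription factors that drive the nitrate response, held one, with 2.29-fold and 1.99-fold and summits 1 bp apart. The nitrate transporter gene NRT2.1, the GRF5 gene, BIN2, UBP12 and UBP13 held none. Their shared peaks lay in promoters or over coding exons: UBP12 had 4, UBP13 had 3, BIN2 had 2, and GRF5 and NRT2.1 had 1 each. None of the 14 genes of the GRF, GIF and UBP12/13 list held a member, and 5 of them had a shared peak that touched an intron. Hosts made up 1.22% of all nuclear protein-coding genes, so finding none in so short a list carries no weight.

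Transporters of amino acids were hosts beside AAP1, a group put together after the hosts were seen. UMAMIT17 (AT4G08300) had 2.09-fold and 2.12-fold with summits 1 bp apart. CAT7 (AT3G10600), a cationic amino acid transporter gene, had 1.70-fold and 1.86-fold, and LHT1 (AT5G40780), a lysine and histidine transporter gene that takes up amino acids in roots, had 1.67-fold and 1.82-fold. Of these 4 genes, 3 also carried a shared promoter peak.

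Of 25 brassinosteroid genes, BIL2 (GSK1, AT1G06390), a GSK3-like kinase gene closely related to BIN2, held a member with 1.67-fold and 1.75-fold enrichment. Its peak was 265 bp wide in replicate 1 and 551 bp in replicate 2, with summits 307 bp apart. Of 24 auxin and lateral root genes, TIR1 (AT3G62980), the gene of an auxin receptor, held one on chromosome 3 from 23275188 to 23275666 with 1.84-fold and 1.95-fold, below its promoter peak of 1.93-fold and 2.21-fold. LBD18 (AT2G45420), a LOB-domain gene of lateral root formation, held one with 1.67-fold and 1.87-fold. The 17 cell cycle genes, the 20 SR splicing factor genes and the 9 reference genes of quantitative PCR held none. With 1.22% of all nuclear protein-coding genes as hosts, lists this short mostly hold none, so these counts carry no weight. KRP4, described above, was not on the cell cycle list.

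Regulators of meristems and flowers were among the hosts. Of 20 listed meristem and homeobox regulators, 3 held a member, all of the KNOX class that keeps meristem cells undifferentiated. STM (AT1G62360) had 1.73-fold in replicate 1 and 2.38-fold in replicate 2, one of the larger gaps between libraries, on chromosome 1 from 23060154 to 23060497. KNAT2 (AT1G70510) had 1.80-fold and 2.02-fold, and KNAT6 (AT1G23380) had 1.92-fold and 1.85-fold with summits 3 bp apart. All 3 also had a shared promoter peak. Of the 20 genes, 11 had some shared peak that touched an intron.

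Of 17 genes with a studied intron, 3 held a member. AG (AGAMOUS, AT4G18960), the MADS-box gene of stamen and carpel identity, had 2.12-fold and 2.07-fold with pileups of 101 and 89 fragments. AG also had 2 shared promoter peaks, the nearest 463 bp away in replicate 1. The strongest of them reached 2.51-fold and 2.44-fold, above the intron peak in both libraries. The intron peak ran on chromosome 4 from 10384183 to 10384469 in replicate 1 and to 10384970 in replicate 2. Whether it coincides with a known enhancer was not tested, since no gene model was used here. STK (AT4G09960), a related MADS-box gene of ovule identity, had 1.95-fold and 2.17-fold. PRF2 (PFN2, AT4G29350), a profilin gene, had 1.71-fold and 1.65-fold.

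The groups that follow were also put together after the host names were seen, so their size carries no weight. MADS-box genes numbered 7 among the hosts, with 8 members and mean folds from 1.64 to 2.25. Besides AG and STK they were the flowering-time genes SOC1, AGL19, MAF3 and MAF5, and SHP2 of fruit opening. AGL19 (AT4G22950) was the strongest, with 2.17-fold and 2.33-fold and summits 13 bp apart. SOC1 (AGL20, AT2G45660), an integrator of flowering signals, held 2 members 510 bp apart in replicate 1, with 2.04-fold and 2.27-fold in one and 1.75-fold and 1.66-fold in the other. SHP2 had 1.89-fold and 1.56-fold. FT, the gene of the mobile flowering signal, had 1.60-fold and 1.69-fold, among the weaker members.

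Homeobox genes numbered 7 as well, with mean folds from 1.87 to 2.32. The epidermal genes PDF2, ANL2 and ATML1 are of the HD-ZIP IV class. ANL2 (AT4G00730) had 2.51-fold in replicate 1 and 2.04-fold in replicate 2, with summits 1 bp apart, and ATML1 (AT4G21750) had 1.93-fold and 1.82-fold. None of the 3 had a shared promoter or coding exon peak. BEL1 (AT5G41410), of ovule development, had 2.12-fold and 2.03-fold. YAB2 and LBD26 had 1.86-fold and 1.87-fold, and 1.88-fold and 1.55-fold. ASL1 (AT5G66870) held 2 members, with 2.18-fold and 2.50-fold in one and 2.21-fold and 2.02-fold in the other, both at or above 2-fold in both libraries.

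Further hosts with roles in flowering time or chromatin, outside the MADS-box family, included EMF1, COP1, EBS, HUA2, CHR4 and VIM2. EMF1 (AT5G11530), which represses flowering together with Polycomb proteins, had 2.27-fold and 2.17-fold, below its promoter peak of 2.55-fold and 2.79-fold. COP1, a ubiquitin ligase gene of light signalling, had 2.12-fold and 1.68-fold. EBS, HUA2 and the chromatin remodeller gene CHR4 lay between 1.64-fold and 2.01-fold. VIM2, of a family of DNA methylation factors, had 1.69-fold and 1.98-fold on a pileup of only 43 fragments in each library, the lowest of all members. Its implied background, 25.1 and 21.3 fragments, was also the lowest. VIM2 has closely related copies, and how reads that fit several places were handled is not given in the sources used here, so its values are uncertain.

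**Figure D4:**
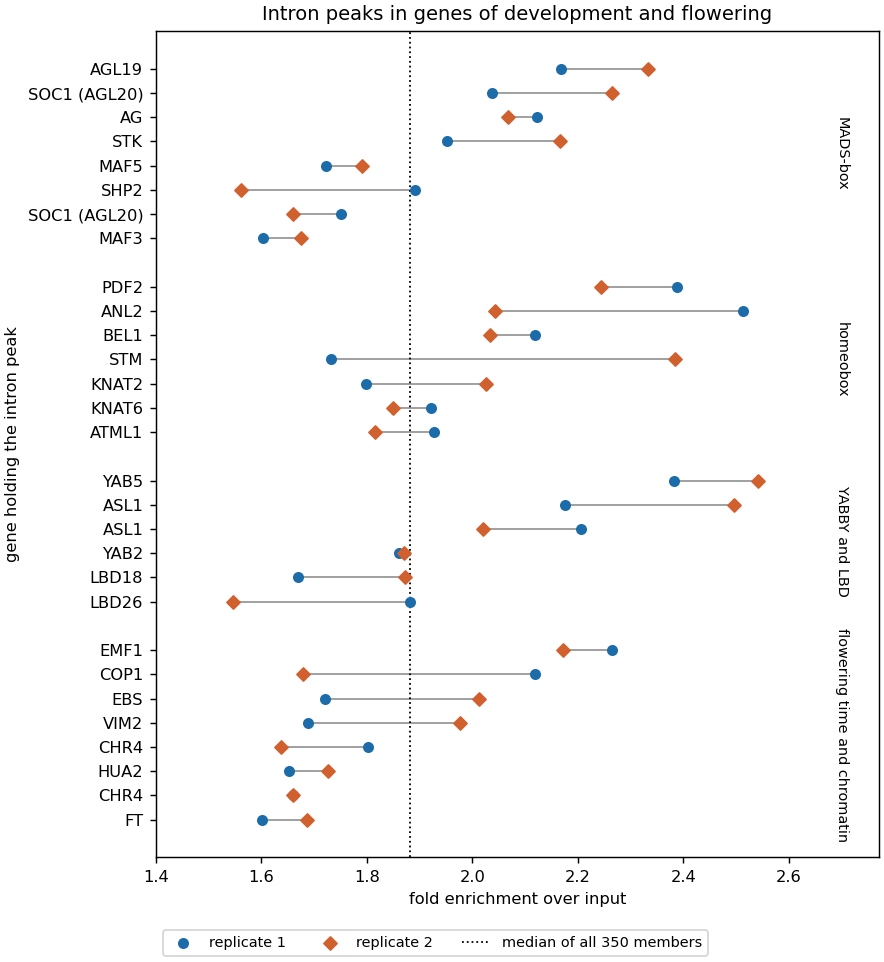
Fold enrichment over input (x axis, ratio) of the intron peaks in MADS-box, homeobox, YABBY and LBD, and flowering-time and chromatin genes, one line per peak, replicate 1 as circles and replicate 2 as diamonds, with the dotted line at the members' median of 1.88. PDF2, ANL2, BEL1, YAB5, ASL1, AGL19, AG, EMF1 and 1 peak of SOC1 lie at or above 2 in both libraries, while STM spans 1.73 to 2.38.

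By the gene annotation in the peak lists, DNA-binding transcription factor activity was listed for 39 of the 327 protein-coding hosts that had any term (11.9%, 95% Wilson interval 8.85 to 15.9%). It was listed for 4.72% of 3054 genes under a shared peak over coding exon and intron, and for 6.75% of 14286 genes with any shared peak. The 42 members in those 39 genes had a median mean fold of 1.96, and 15 of them (35.7%) were at least 2-fold in both libraries, beside 24% of all members. This was the highest such share among the terms looked at. For the others it ran from 11.1% for protein kinase activity and for chloroplast to 33.3% for mitochondrion, with only 6 members. These 2-fold shares are given without intervals and rest on few members. Terms for mitochondrion and chloroplast were listed for 6 (1.83%) and 17 (5.20%) of the hosts, and for 6.88% and 9.76% of the genes under coding exon and intron peaks and 6.38% and 8.46% of genes with any shared peak. Protein kinase activity was at 5.50% of hosts (interval 3.51 to 8.53%), between the 6.84% of coding exon and intron genes and the 4.70% of genes with any shared peak. RNA binding was at 7.34% (interval 4.98 to 10.7%), also between the 9.0% and 6.92% of those sets. The term for nucleus was at 35.5% of hosts, 32.3% of coding exon and intron genes and 25.1% of genes with any shared peak. A gene needs an intron, or intron with untranslated exon, about as wide as a peak to enter the class at all. Intron lengths were not used here, so their part in these shares was not tested.

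**Figure D5:**
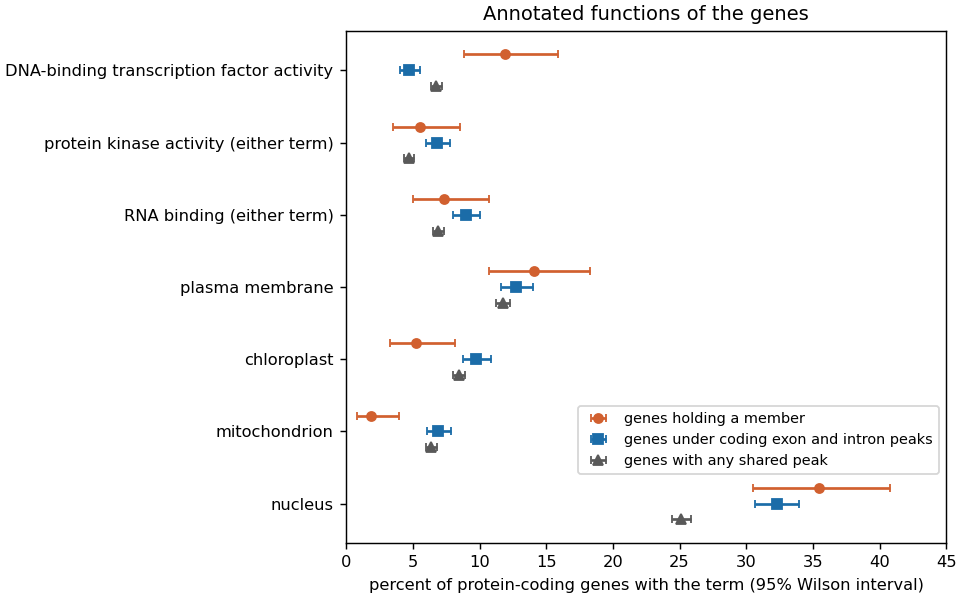
Share of protein-coding genes with a given annotation term (x axis, percent, with 95% Wilson intervals that cover counting only) among 327 hosts of an intron member, 3054 genes under shared coding exon and intron peaks and 14286 genes with any shared peak. Transcription factor activity stands at 11.9%, 4.72% and 6.75%, and mitochondrion at 1.83%, 6.88% and 6.38%.

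A few cell wall genes picked after the fact are given as examples, beside PGSIP3 above. BXL2, a beta-xylosidase gene, had 2.26-fold in both libraries, and the cellulose synthase gene CESA1 1.74-fold and 1.72-fold with summits 1 bp apart. The root hair gene CSLD3 had 1.80-fold and 2.06-fold. Among the cytoskeleton genes that were hosts, GRL, ABIL2 and ABIL3 encode parts of the SCAR/WAVE complex, which drives actin branching. Their values were 1.85-fold and 2.25-fold, 1.92-fold and 1.70-fold, and 2.35-fold and 1.92-fold. Among genes of RNA processing, RBP47C had 2.34-fold and 2.09-fold, while the 2 peaks of ALY3, an mRNA export factor gene, had mean folds of 1.59 and 1.52 and the peak of MTR4, an RNA helicase gene, 1.52.

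Some hosts also had a shared promoter or coding exon peak, and others had neither. Of the 335 protein-coding hosts, 117 (34.9%) also had a shared promoter peak. The share was 33.0% of 3113 genes under coding exon and intron peaks, 64.8% of the 14922 genes with any shared peak and 35.2% of all 27444 nuclear protein-coding genes. A shared coding exon peak was present in 119 hosts (35.5%), against 53.5% of genes with any shared peak and 29.1% of all. A promoter or coding exon peak is what brought most genes into the set with any shared peak, whereas hosts entered by their intron peak. Neither was found in 134 of the 335 hosts, in 455 of the 14922 genes and in 12977 of the 27444. The share with neither was thus lower among hosts than among all nuclear protein-coding genes. Hosts with neither included PDF2, BEL1, KRP4, YAB5 and GLN2. In the 117 hosts with both kinds of site, the strongest intron member was above the strongest promoter peak in both libraries in 38, below it in both in 51 and mixed in 28. The median gap between member and nearest promoter peak was 1756 bp (quartiles 1026 and 2728 bp). Against the strongest coding exon peak of the same gene, the member was higher in both libraries in 34 hosts, lower in both in 52 and mixed in 33. Choosing the strongest of several peaks favours the side with more of them.

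No gene held more than 2 members, and 10 genes held 2. They were IDD5, AT2G33435, SOC1, AT3G03440, AT3G03790, ALY3, AT4G02485, SAP, CHR4 and ASL1. In replicate 1 the gap between the peaks ran from 312 bp in AT3G03440 to 3318 bp in IDD5, a zinc finger transcription factor gene. No other shared peak lay between them in 9 of the 10, and 1 did in CHR4. The members of a pair differed most in SAP, at 1.58-fold and 1.81-fold against 2.52-fold and 3.09-fold. In the other genes every value lay between 1.44-fold and 2.50-fold.

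Members were spread over all chromosomes, with 90 on chromosome 1, 59 on 2, 53 on 3, 58 on 4 and 90 on 5. Per 100 shared peaks this came to 1.81, 1.91, 1.44, 1.99 and 2.06. The median mean fold ran from 1.80 on chromosome 3 to 1.96 on chromosome 4, while over all shared peaks it stayed between 1.88 and 1.90. The members' medians rest on 53 to 90 peaks each, against 2917 to 4966 for all shared peaks, so they are less exact. Whether chromosomes differ was not tested.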

How the data were processed

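DNA recovered with GRF5 was measured in 2 libraries against 1 input. Per the submitters' processing notes, Trimmomatic 0.39, Bowtie2 2.4.6 and MACS2 2.2.7.1 were used on TAIR10; caller settings and read filters were not given in the sources used here. Both deposited lists, called per replicate against the input per the peak names, give the pileup signal in whole fragments, the fold enrichment (a ratio to the input-based background) and −log10 p and −log10 q values per the file headers. The lowest −log10 q was 1.30. Total reads were not used here, so depth is known only through pileups.

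The 87571 and 82807 entries were collapsed to peaks by chromosome, start and end. Organelle peaks were left out, and 1 was added to starts. Peaks were paired one-to-one, largest overlap first, at 50% of the shorter peak; the pairing was tested on simulated data. Mean fold is the mean of both libraries. The implied background, (pileup + 1)/fold − 1, supposes that the caller added 1 to both sides. The tools were matplotlib 3.10.9, pandas 2.3.3, Python 3.11.15, scipy 1.17.1 and numpy 2.4.6. Symbols and gene types come from a RefSeq table of TAIR10.1, none of whose coordinates were used; all 340 host genes matched.

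The labels call the libraries biological replicates without saying what was prepared separately, so their spread may be technical. With a single group no test was made. Members and lists were chosen with earlier results of these data known. Genes were named by rule: the hosts of the top 25 members, up to 4 per list, those with most members (5 planned, 10 tied), the 5 largest differences between libraries, the 5 widest and 3 narrowest members, and NRT1.1, GRF5, BIN2, UBP12 and UBP13. Other hosts named, the function groups and the annotation terms were chosen after values were seen. NRT3.2 and the sequence of the regions, with the planned GRF motif search, were not analysed here.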

Additional observations from a re-analysis of the deposited data

How the results depend on the processing

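Requiring an overlap of 50% of the longer peak, accepting any overlap, or leaving out members with intergenic annotation changed none of the values run under them beyond the spread between libraries or, for counts, 1.5 times. At a stricter limit, a −log10 q of 5 or more in both lists, 156 members in 154 genes remained, with a median fold of 2.08, 53.8% at least 2-fold in both libraries, a median summit distance of 38 bp and 7 listed genes. The rise in fold is largely built in, because the q value and the fold rest on the same pileup. All shared peaks were not put under this limit here. Taking the annotation of either list instead of both gave 639 members in 609 genes, 20.8% of them at least 2-fold and a median width of 428.5 bp. Without replicate 1 or without replicate 2, one list alone gave 711 to 733 members in 679 to 709 genes. Listed hosts numbered 21 to 22, against 14. Median widths were 343 to 347 bp and median folds 1.81 to 1.82. With one list, only 2-fold enrichment in that library could be counted. It was reached by 24.6% in replicate 1 and 29.7% in replicate 2, against 34% and 37.1% of the 350 members there. One list alone drops both the partner and the second annotation: of the added peaks, 253 in replicate 1 and 202 in replicate 2 had no partner, and 130 and 159 had a partner of another class. Leaving out AT2G39300, an alternative chosen after seeing the data, left the median fold at 1.88. No paired analysis was possible because the libraries form a single group against one input. The motif alternatives were not run. The depth behind a peak is known only from its pileup, a median of 88 and 83 fragments in the members, and a single input served both lists.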
